A study of Mus musculus with 10 samples.

Results

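The platelet-derived growth factor (PDGF) family was examined in sarcomas of 2 mouse models by bulk RNA-seq: the ligand genes Pdgfa, Pdgfb, Pdgfc and Pdgfd and the receptor genes Pdgfra and Pdgfrb. The members were taken by gene symbol, and these 6 genes are among 56750 features of the count table, of which 24743 were tested after a filter on low counts. All 6 members passed that filter. The dFLEx CDS group held 3 tumors (170019, 170024 and 170025) of genotype dFLEx CDS +/-, in which an HA-tagged CIC::DUX4 fusion knocked into Rosa26 behind the ubiquitous CAG promoter is put in frame only after Cre and FLP recombination, brought in as plasmids by electroporation into the gastrocnemius muscle of young adult mice. The KP group held 2 tumors (3800 and 3802) whose genotype includes p53fl/fl, a sarcoma model with loss of p53, for which the sources used here give no age and no cell type of origin. The tumor was the replicate, each tumor number in the labels being taken as a separate animal, and no normal muscle was analysed here. The comparison therefore sets a fusion-driven sarcoma against a sarcoma of the KP model and has no untreated baseline.

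PDGF ligands are secreted dimers that activate the receptor tyrosine kinases PDGFR alpha and PDGFR beta. PDGF-A and PDGF-C homodimers act through the alpha receptor, PDGF-D homodimers mainly through the beta receptor, and PDGF-B homodimers through both. PDGF-A and PDGF-B are cut inside the cell by furin-type convertases, whereas PDGF-C and PDGF-D are released in a latent form and need proteases such as tPA, urokinase or matriptase outside the cell. In most tissues endothelial cells make PDGF-B, which recruits pericytes and smooth muscle cells that carry the beta receptor, and fibroblasts and mesenchymal progenitors carry the alpha receptor. In skeletal muscle the alpha receptor marks the fibro-adipogenic progenitors.

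No member reached an adjusted p under 0.05 between the models in edgeR's quasi-likelihood test on tumor sums, which called 45 of the 24743 tested genes (0.182%). The levels nevertheless had a recurring layout. In each dFLEx tumor Pdgfc was the most abundant ligand RNA per kilobase of exon, and in each KP tumor it was Pdgfa. Every dFLEx tumor exceeded both KP tumors in Pdgfc and Pdgfb and lay below them in Pdgfa, while Pdgfd and both receptors overlapped between the groups. At an unadjusted p under 0.05 stood 3 of the 6 members (Pdgfa, Pdgfb and Pdgfc) and 10.6% of all tested genes. Among all tested genes, 13.7% had every dFLEx tumor above both KP tumors and 11.7% had every one below.

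Library totals ran from 20503474 to 46302223 counts, and duplicate libraries were split from the RNA of 1 tumor. Tumor 3802 contributed 1 library, which had the lowest total and the most features with a count, 36904 against 24280 to 31768 in the others. A member had between 55 and 8165 counts in a library, and duplicates of a tumor differed in a member's level by 1.08-fold at the median of 24 pairs and by at most 1.48-fold. The fusion feature had 89.3, 192 and 409 CPM (counts scaled to equal library size) in 170019, 170024 and 170025. It had 0 counts in 3800, which allows up to 0.0428 CPM by a limit of 3 counts that covers counting error only, and 6 counts in 3802, or 0.293 CPM. Of 8 listed target genes of the fusion, 8 were higher in every dFLEx tumor and 1 passed the adjusted threshold, the neuropeptide precursor gene Vgf, whose log2 fold change was 11.33 ± 0.92 (SE) with an adjusted p of 0.0245. The list's median log2 fold change was 4.30 against −0.18 over all tested genes. The study names most of these targets from the same tumors, so their direction is not independent evidence.

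**Figure D1:**
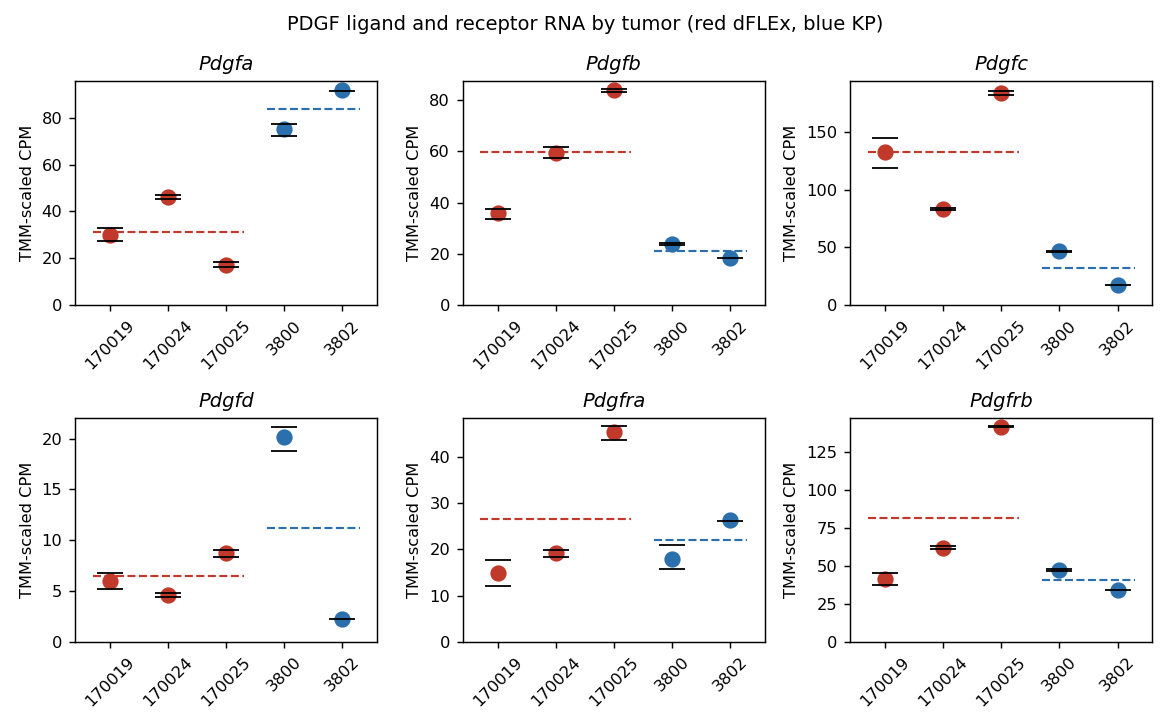
RNA level of each PDGF gene in TMM-scaled CPM (linear axis from 0) in the 3 dFLEx tumors (red) and 2 KP tumors (blue). Filled circles are sums over the libraries of a tumor, short black bars single libraries and dashed lines group means. Pdgfb and Pdgfc lie higher and Pdgfa lower in all 3 dFLEx tumors, whereas the other 3 genes overlap.

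Pdgfc (ENSMUSG00000028019, GRCm39 chr3:80943723-81121347, plus strand) encodes the CUB-domain ligand of the alpha receptor. Its level, in CPM scaled by TMM factors of the edgeR package, was 133 in 170019, 83.0 in 170024 and 184 in 170025, against 46.5 in 3800 and 17.4 in 3802. The lowest dFLEx tumor thus lay 1.79-fold above the highest KP tumor, and each group also spread widely. The means were 133 ± 50.5 (SD, n = 3) and 31.9 ± 20.6 (SD, n = 2), and the log2 fold change was 2.06 ± 0.71 (SE; adjusted p = 0.332 by edgeR). This was the largest difference among the members. Its direction was kept in all 16 alternative fits, which reuse the same tumors and, with no overlap between groups, leave little room for reversal. Its call depended on the test: DESeq2 on the same tumor sums gave an adjusted p of 0.0408 in a fit that called 6.13% of tested genes, and limma-voom, which took the tumor as a random term, gave 0.0369 in a fit that called 2.78%. Leaving out 1 tumor moved the log2 fold change between 1.54 and 3.11.

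Pdgfb (ENSMUSG00000000489, GRCm39 chr15:79880075-79899178, minus strand) encodes the ligand of both receptors and is a long-known product of endothelial cells and platelets. It reached 35.8 CPM in 170019, 59.5 CPM in 170024 and 83.8 CPM in 170025, and among KP tumors 23.9 CPM in 3800 and 18.4 CPM in 3802. The groups were separated by 1.5-fold at their nearest values, and the dFLEx tumors differed among themselves more than the KP tumors did. The means of 59.7 ± 24.0 and 21.2 ± 3.85 CPM (SD, n = 3 and n = 2) correspond to 1.5 ± 0.63 on the log2 scale (SE of the fold change; adjusted p = 0.459 by edgeR). Leaving out 1 tumor moved it between 1.16 and 1.86. With the duplicate libraries taken as independent samples, edgeR called Pdgfb (adjusted p = 0.0135), Pdgfa and Pdgfc, in a fit that called 17.1% of genes and counts each RNA split as a replicate.

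Pdgfa (ENSMUSG00000025856, GRCm39 chr5:138961769-138983125, minus strand) encodes the classical ligand of the alpha receptor. It ran the other way, with 30.1, 46.2 and 17.2 CPM in 170019, 170024 and 170025 against 75.3 CPM in 3800 and 91.9 CPM in 3802. Both KP tumors lay above all dFLEx tumors, the nearest pair being 1.63-fold apart. The means were 31.1 ± 14.5 and 83.6 ± 11.7 CPM (SD, n = 3 and n = 2), and the log2 fold change was −1.42 ± 0.61 (SE; adjusted p = 0.464 by edgeR). It lay between −1.81 and −1.15 with 1 tumor left out. The noncoding gene 6330403L08Rik overlaps Pdgfa on the other strand and had 2016 counts over all tumors. The counting ignored strand and dropped reads over both genes, so part of the Pdgfa RNA may be missing from all 5 values.

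Pdgfd (ENSMUSG00000032006, GRCm39 chr9:6168584-6378850, plus strand), the CUB-domain ligand of the beta receptor, was the least abundant ligand per kilobase in 4 of 5 tumors. It measured 6.02, 4.58 and 8.73 CPM in 170019, 170024 and 170025. The KP tumors lay on either side of these, at 20.1 CPM for 3800 and 2.23 CPM for 3802, so that 1 group alone spanned 9.00-fold. The log2 fold change, −0.80 ± 0.89 (SE; adjusted p = 0.889 by edgeR), turned to 1.69 without 3800 and was −1.62 without 3802, so no direction between models can be given.

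Pdgfra (ENSMUSG00000029231, GRCm39 chr5:75312953-75358876, plus strand) encodes the alpha receptor. Its TMM-scaled levels of 15, 19.2 and 45.5 CPM in 170019, 170024 and 170025 enclosed those of the KP tumors, 17.9 CPM in 3800 and 26.4 CPM in 3802. The single high value was in 170025. The log2 fold change was 0.27 ± 0.69 (SE; adjusted p = 0.955 by edgeR), was −0.39 without 170025, and was −0.02 when libraries were scaled by their totals. Scaling by totals in place of TMM moved the median log2 fold change of all tested genes from −0.18 to −0.47.

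Pdgfrb (ENSMUSG00000024620, GRCm39 chr18:61178222-61218133, plus strand), the beta receptor of pericytes, smooth muscle cells and fibroblasts, was also highest in 170025. The dFLEx tumors 170019, 170024 and 170025 held 41.4, 62.0 and 141 CPM, compared with 46.9 CPM in 3800 and 34.1 CPM in 3802. The groups overlapped because 170019 lay below 3800. The log2 fold change was 1.01 ± 0.70 (SE; adjusted p = 0.774 by edgeR), and it was 0.34 without 170025.

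**Figure D2:**
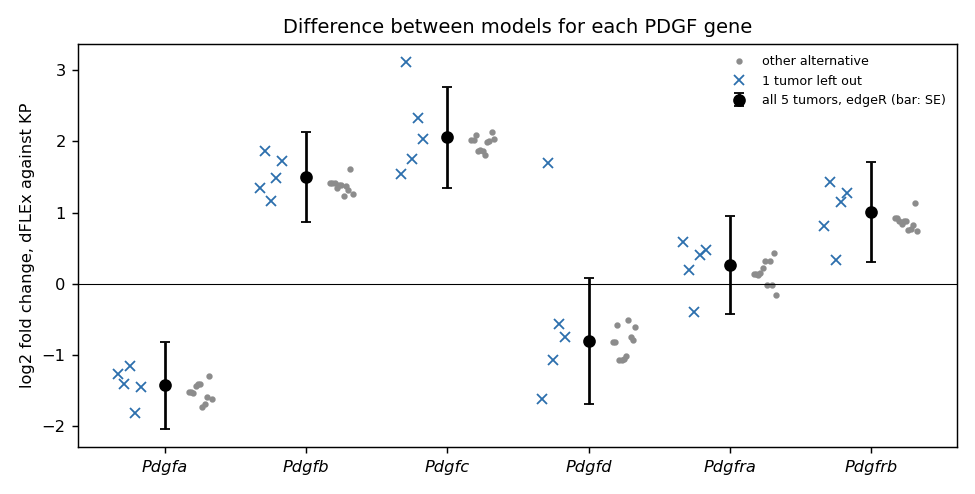
Log2 fold change of each PDGF gene, dFLEx against KP. Black circles with bars give the edgeR fit on 5 tumors and its SE, blue crosses the same fit with 1 tumor left out, and grey points the other alternatives in scaling, filter, library choice and test. Pdgfa, Pdgfb and Pdgfc keep their sides of 0, and Pdgfd and Pdgfra have values on both sides.

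The levels were next divided by exonic length, so that different genes could be compared within a tumor. Summed over the 4 ligands, the level was 52.6 ± 10.4 CPM per kb in dFLEx tumors (SD, n = 3) and 41.7 ± 5.23 in KP tumors (SD, n = 2), with 46.2, 46.9 and 64.6 in 170019, 170024 and 170025 and 45.4 and 38.0 in 3800 and 3802. These sums nearly met between the groups, whereas their make-up did not. Pdgfc supplied 56.4%, 34.8% and 56.0% of it in 170019, 170024 and 170025, against 20.1% in 3800 and 8.97% in 3802. Pdgfa supplied 20.9%, 31.6% and 8.52% in the dFLEx tumors in the same order, against 53.2% and 77.5% in the KP tumors. In 170024 the leading ligands were nearly level, since Pdgfc stood at 16.3, Pdgfa at 14.8 and Pdgfb at 14.3 CPM per kb, within the spread between tumors. Pdgfb made up 18.6% to 31.2% of the sum in dFLEx tumors and 11.7% to 12.6% in KP tumors. Pdgfd made up 14.1% in 3800 and at most 4.29% elsewhere.

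A ratio of members within a tumor does not depend on how libraries are scaled. The ratio of Pdgfc to Pdgfa per kilobase was 2.7, 1.10 and 6.57 in 170019, 170024 and 170025, and 0.379 and 0.116 in 3800 and 3802. The groups were 2.91-fold apart at their nearest values, and the mean log2 ratios differed by 3.69. The ratio of Pdgfb to Pdgfa was 0.891, 0.965 and 3.66 in the dFLEx tumors and 0.238 and 0.151 in the KP tumors. These pairs were chosen after the levels were seen and are given with no test. The division of ligands by receptor preference showed less: the summed level of Pdgfa and Pdgfc was 3.40, 1.98 and 1.82 times that of Pdgfb and Pdgfd in the dFLEx tumors and 2.75 and 6.39 times in the KP tumors, which overlapped (log2 difference −0.86, exact two-sided permutation p = 0.4). That difference was −0.25 without 3802 and −1.47 without 3800. Pdgfa and Pdgfc, both ligands of the alpha receptor, differed between models in opposite directions within this sum.

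Pdgfrb exceeded Pdgfra per kilobase in all 5 tumors. The ratio of Pdgfra to Pdgfrb was 0.198, 0.169 and 0.176 in 170019, 170024 and 170025, a narrow range beside the 3.03-fold range of Pdgfra and the 3.42-fold range of Pdgfrb over the same tumors. In KP tumors it was 0.208 in 3800 and 0.423 in 3802. The log2 difference of −0.72 had an exact two-sided permutation p of 0.2, the smallest that 3 tumors against 2 allow, and it shrank to −0.21 without 3802. Summed over both receptors, the level was 9.06, 13.2 and 30.4 CPM per kb in the dFLEx tumors and 10.3 and 8.85 in the KP tumors, with 170025 well above the other 4.

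**Figure D3:**
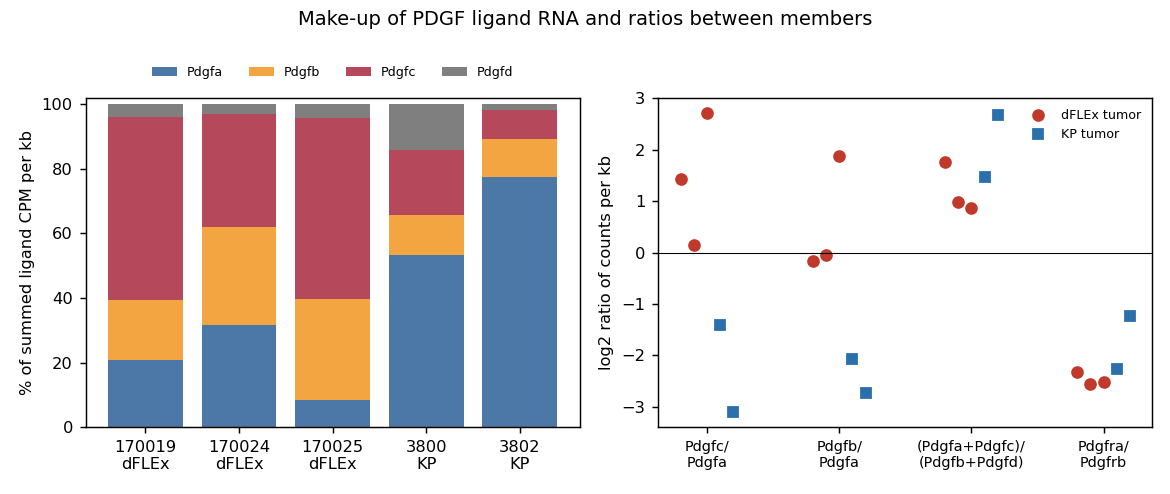
Left, share of each ligand gene in the summed ligand level (CPM per kb of exon) of each tumor, in percent. Right, log2 ratios between members per tumor (red circles dFLEx, blue squares KP). Pdgfc leads the ligands in the dFLEx tumors and Pdgfa in the KP tumors, and only the ratios to Pdgfa separate the groups widely.

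The tumors also differed in markers of the cells known to make or receive PDGF. In bulk RNA, fewer cells of a type and less RNA per cell cannot be told apart. Tumor cells may also supply marker RNA. By single-nucleus RNA-seq the study found a subcluster of dFLEx tumor cells enriched for Pecam1, Erg and Cdh5, which are on the endothelial list, and mesenchymal features in other tumor cells. The summed level of 8 endothelial markers was 299, 368 and 578 CPM in 170019, 170024 and 170025 and 181 and 124 CPM in 3800 and 3802. All 8 had a positive log2 fold change, with a median of 1.22 against −0.18 over all tested genes. Of the 8, 4 were higher in dFLEx tumors without overlap, beside 13.7% of all tested genes, yet none passed the adjusted test. Pdgfb had the same order of tumors, and its ratio to this sum was 0.120, 0.161 and 0.145 in the dFLEx tumors against 0.132 and 0.148 in the KP tumors. That is a 1.35-fold range for a gene that itself ranged 4.54-fold. With the geometric mean of the markers the range was 1.47-fold, and with single markers between 1.78-fold (Pecam1) and 4.11-fold (Vwf). The ratio of Pdgfb to the geometric mean of 9 fibroblast markers was just as narrow, at 1.38-fold. The part of either cell type in the difference of Pdgfb was not tested.

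Pericyte markers, of which 7 were listed, summed to 980, 613 and 1121 CPM in 170019, 170024 and 170025, 420 CPM in 3800 and 88.4 CPM in 3802. In every tumor but 3802 most of this was Rgs5, which made 826, 473 and 776 CPM in the dFLEx tumors and 249 and 16.5 CPM in the KP tumors. The ratio of Pdgfc to the sum spanned 1.77-fold (0.111 in 3800 to 0.196 in 3802) while Pdgfc itself spanned 10.6-fold, but with the geometric mean of the 7 markers it spanned 2.47-fold and remained higher in dFLEx tumors by 0.94 on the log2 scale. For the beta receptor, a pericyte gene by textbook, the reading depended on the denominator. Its ratio to the pericyte sum ranged 9.11-fold and that to the sum of 9 fibroblast markers 1.93-fold, but with geometric means the ranges were 2.54-fold and 2.28-fold, beside 4.15-fold for Pdgfrb itself. The ratio of Pdgfrb to the endothelial markers ranged 1.98-fold with their sum. With their geometric mean it ranged 1.89-fold, less than with either of the other 2 lists. Which cells held the Pdgfrb RNA was not tested. The fibroblast sum was 4356, 7199 and 13524 CPM in 170019, 170024 and 170025 and 4603 and 2048 CPM in 3800 and 3802. All 9 fibroblast markers had a positive log2 fold change (median 1.19 against −0.18 over all tested genes). Of these, 4 did not overlap, beside 13.7% of all tested genes. Pdgfa kept a wide ratio to the endothelial (24.9-fold), pericyte (67.9-fold) and fibroblast (35.4-fold) sums.

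The remaining lists differed in direction. Over all tested genes, 13.7% were higher and 11.7% lower in dFLEx tumors without overlap. The 7 macrophage markers summed to 754, 698 and 571 CPM in the dFLEx tumors and to 1228 and 4018 CPM in the KP tumors, with 5 of 7 lower in dFLEx and 4 without overlap. In 3802 C1qa alone made 3099 CPM of this sum, while Cd68 (33.6 CPM) and Cd163 (2.60 CPM) were lowest there. The ratio of Pdgfa to the sum ranged 2.89-fold and that to the geometric mean 3.42-fold, beside 5.36-fold for Pdgfa itself. The 5 smooth muscle markers summed to at most 278 CPM in a dFLEx tumor and to 317 and 335 CPM in 3800 and 3802, but Acta2 alone made 306 and 312 CPM of the latter. Of the 5, 2 had a positive and 3 a negative log2 fold change, with 1 higher and 2 lower without overlap. The 4 muscle progenitor markers summed to 9.50, 35.4 and 17.3 CPM against 239 and 334 CPM, of which Myog made 112 and 254 CPM. All 4 had a negative log2 fold change, the largest in Myf5 (−6.30) and Myog (−4.17). Mature myocyte markers ran the other way, at 8194, 32108 and 9492 CPM against 1336 and 3936 CPM, with 6 of 7 higher in every dFLEx tumor. Platelet markers, a possible carrier of Pdgfa and Pdgfb RNA, overlapped at 33.7 to 55.7 CPM against 18.5 and 104 CPM, and Gp1bb was at 0 in all tumors. In all, 48 ratios of a member to a list were computed for each of 2 denominators and the narrow ones were noticed afterwards. The part of these lists in the members' differences was not tested.

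**Figure D4:**
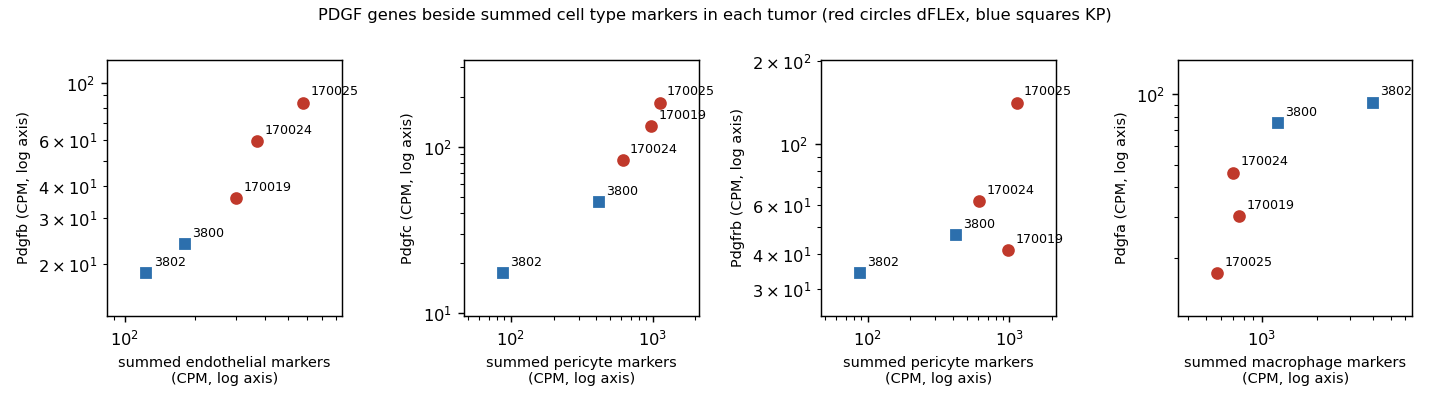
Level of a PDGF gene (vertical, TMM-scaled CPM) against the summed level of a marker list (horizontal, CPM) in each tumor, both on log axes, with dFLEx tumors as red circles and KP tumors as blue squares. Pdgfb against endothelial markers and Pdgfc against pericyte markers lie near 1 line through both groups. Pdgfrb departs from the pericyte sum in 170019 and further in 3802. Pdgfa is highest in 3802, where the macrophage sum, mostly C1qa there, is also highest.

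Within the dFLEx group the fusion feature was lowest in 170019 and highest in 170025, and 3 of the 6 members (Pdgfb, Pdgfra and Pdgfrb) had the same order of tumors. So did 29.0% of all tested genes, the summed fibroblast and endothelial markers and the sequencing depth of the tumors. The other members did not follow the fusion order: Pdgfc and Pdgfd were lowest, and Pdgfa highest, in 170024. No share over all tested genes was computed for these orders.

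Genes that process or bind PDGF were higher in dFLEx tumors more often than lower (8 of 12, median log2 fold change 0.67 against −0.18 over all tested genes). None passed the adjusted test. At an unadjusted p under 0.05 by edgeR, 5 were higher and 1 lower, beside 10.6% of all tested genes in either direction. In all dFLEx tumors 7 were higher and 1 lower, beside 13.7% and 11.7% of all tested genes. The largest difference was in St14, which encodes matriptase, a protease able to activate PDGF-C and PDGF-D. It measured 34.9, 42.7 and 39.9 CPM in 170019, 170024 and 170025 against 0.927 CPM in 3800 and 5.93 CPM in 3802 (log2 fold change 3.52, SE 0.93, adjusted p = 0.201 by edgeR). The other proteases known to cut the CUB-domain ligands had negative log2 fold changes: Plau, encoding urokinase, had 53.6 to 96.2 CPM in the dFLEx group against 819 and 182 CPM in KP tumors (log2 fold change −2.67, adjusted p = 0.208), and Plat, encoding tPA, 20.9 to 59.3 CPM against 225 and 36.4 CPM (−1.85, adjusted p = 0.507). Of the convertases, Pcsk6 had a log2 fold change of 3.18 that rests on 61.4 CPM in 170025, its other dFLEx values being 3.86 and 8.36 CPM. Pcsk5 was at 21.2 to 61.1 CPM against 5.04 and 7.64 CPM (2.48, adjusted p = 0.262). Furin, the best known of them, overlapped between groups (log2 fold change 0.33). Sparc, a matrix protein that binds PDGF-B, was at 3553 to 4907 CPM against 2176 and 1186 CPM (1.31, adjusted p = 0.449).

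Signaling genes just below the receptors showed no common direction. Of 19 effectors 7 were higher and 12 lower, none had an unadjusted p under 0.05, and the median of −0.19 was that of all tested genes to within 0.01. The 2 with the largest log2 fold changes were Plcg1, which encodes the receptor-bound phospholipase (1.48, SE 0.90), and Stat5b (1.39, SE 0.67). Of 11 negative regulators 3 were higher and 8 lower with a median of −0.16. The RasGAP gene Rasa1, whose product docks on PDGFR beta, measured 26.7, 25.5 and 50.7 CPM in dFLEx tumors against 181 and 76.5 CPM in KP tumors (log2 fold change −1.91, SE 0.64, adjusted p = 0.313 by edgeR). Lrig1, encoding a membrane inhibitor of receptor tyrosine kinases, measured 5.00, 20.4 and 28.6 CPM against 127 and 30.1 CPM (−2.12, SE 0.88, adjusted p = 0.447).

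Genes that growth factors induce were mixed, 8 of 13 being higher and 5 lower (median 0.46), and none passed the adjusted threshold. In all dFLEx tumors 4 were higher and 2 lower, beside 13.7% and 11.7% of all tested genes. Ccn2, a matricellular growth factor target, measured 646, 372 and 303 CPM in 170019, 170024 and 170025 against 22.5 and 108 CPM in 3800 and 3802 (log2 fold change 2.75, SE 0.84, adjusted p = 0.263 by edgeR). The AP-1 gene Fosl1 had the most negative log2 fold change of the list, −2.54, which rests on 47.2 CPM in 3800, since 3802 was at 0.528 CPM. The chemokine gene Ccl2, a classical PDGF-induced gene, was at 8.68 to 19.0 CPM against 35.5 and 92.6 CPM (−2.19, adjusted p = 0.260 by edgeR). The growth factor gene Hbegf was at 27.2 to 55.1 CPM against 111 and 96.2 CPM (−1.37, adjusted p = 0.438 by edgeR). Besides Ccn2, those higher in every dFLEx tumor were Egr2 (2.07, adjusted p = 0.444), Fos (1.74, adjusted p = 0.510) and Ccn1 (1.34, adjusted p = 0.460, all by edgeR). The genes of this list respond to many growth factors besides PDGF.

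**Figure D5:**
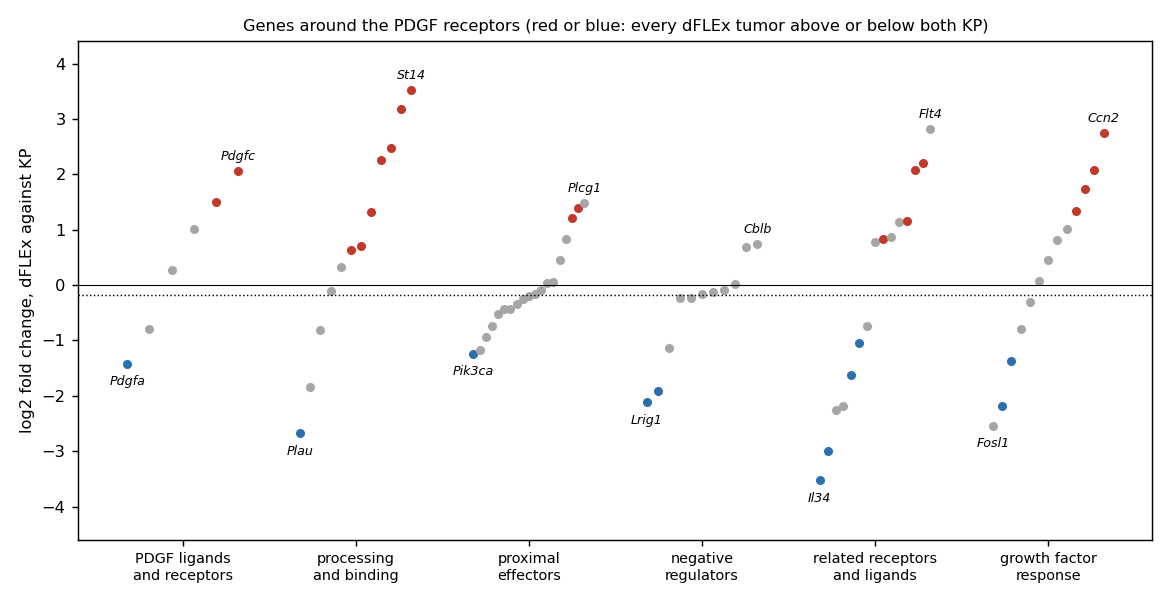
Log2 fold change, dFLEx against KP, of each gene in 6 lists, sorted within a list, with the outermost genes named. Red and blue points have every dFLEx tumor above or below both KP tumors, grey points overlap, and the dotted line is the median of all tested genes (−0.18). Processing and binding genes are mostly red, and effectors lie around the dotted line.

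Genes beside Pdgfa, Pdgfb and Pdgfrb on their chromosomes were split between higher and lower. None of the tested genes within 500 kb of a member passed the adjusted threshold. Of 18 neighbors of Pdgfa 9 were higher and 9 lower (median log2 fold change 0.01). The most negative was Prkar1b, which starts 41.3 kb above the start of Pdgfa (−3.12, SE 0.72, adjusted p = 0.152 by edgeR). Several others had values smaller than their SE, such as Get4 (−0.12, SE 0.59). Of 31 neighbors of Pdgfb 17 were higher and 14 lower (median 0.08). Of 20 neighbors of Pdgfrb 9 were higher and 11 lower (median −0.54), and 5 had a value not below that of Pdgfrb (1.01). The 2 neighbors tested for Pdgfc, the glutamate receptor gene Gria2 and the glycine receptor gene Glrb, had log2 fold changes of −2.52 and −0.98 at mean levels of 1.14 and 0.999 CPM, against 2.06 for Pdgfc. Kit, the related receptor gene 423 kb from Pdgfra, measured 15.1, 21.1 and 54.2 CPM in dFLEx tumors against 6.84 and 7.48 CPM in KP tumors (log2 fold change 2.07, SE 0.76, adjusted p = 0.377 by edgeR). Chic2, on the other side of Pdgfra, had a log2 fold change of 0.06.

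CIC binds an octamer spelled tgaatgaa, tgaatgga, tcaatgaa or tcaatgga, and CIC::DUX4 keeps its DNA-binding part. Promoter windows of 300 bases (250 before the start and 50 after it) were taken from RefSeq on GRCm38.p6 for the 4 members that the table lists, namely Pdgfa with 2 starts, Pdgfc, Pdgfd and Pdgfra. None of the 5 windows holds the octamer on either strand, against 3.84% of 32851 windows in the table. The windows of the 2 genes with opposite directions, Pdgfc and Pdgfa, are shown because they differ in base composition: GC content was 55.0% for Pdgfc and 67.0% and 73.3% for the Pdgfa starts (median of all windows, 52.7%). Capitals mark the GC box gggcgg on either strand, found once in the first Pdgfa window and at 2 places in the second, and in 35.7% of all windows. It is not in the Pdgfc window, and the ETS core ccggaa (14.9% of windows) is in none of the 5. The windows are Pdgfc at chr3:81036166-81036465 (plus strand) and Pdgfa at chr5:138994232-138994531 and chr5:138994895-138995194 (minus strand), each written 5′ to 3′ along its gene.
Pdgfc: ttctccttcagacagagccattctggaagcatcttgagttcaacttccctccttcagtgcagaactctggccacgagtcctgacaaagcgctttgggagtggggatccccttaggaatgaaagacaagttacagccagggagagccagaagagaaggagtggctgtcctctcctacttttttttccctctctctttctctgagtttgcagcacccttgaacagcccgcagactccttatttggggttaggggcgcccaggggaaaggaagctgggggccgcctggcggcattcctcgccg
Pdgfa start 1: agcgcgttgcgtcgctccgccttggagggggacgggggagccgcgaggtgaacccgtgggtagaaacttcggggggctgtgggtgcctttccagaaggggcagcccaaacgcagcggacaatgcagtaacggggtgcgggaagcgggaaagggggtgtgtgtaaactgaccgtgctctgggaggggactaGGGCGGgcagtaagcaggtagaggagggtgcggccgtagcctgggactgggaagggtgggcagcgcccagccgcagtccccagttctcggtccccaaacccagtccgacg
Pdgfa start 2: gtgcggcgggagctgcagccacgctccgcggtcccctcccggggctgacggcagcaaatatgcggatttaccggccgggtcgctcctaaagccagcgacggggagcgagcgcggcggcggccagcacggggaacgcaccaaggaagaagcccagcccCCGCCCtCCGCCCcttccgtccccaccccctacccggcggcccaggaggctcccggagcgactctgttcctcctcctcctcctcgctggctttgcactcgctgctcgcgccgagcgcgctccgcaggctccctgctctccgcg
A missing match says only that these letters are not in this window. Enhancers and more distant promoter sequence were not searched.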

How the data were processed

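RNA from flash-frozen tumors was split into duplicates, depleted of ribosomal RNA and sequenced as paired ends. Per the labels, the authors trimmed reads with Trimmomatic 0.39, aligned them with STAR 2.7.10a to mm39 extended by the fusion construct, and deposited raw counts per gene made with featureCounts (Subread 2.0.3). The deposited counts ignore strand, drop reads over several genes or several sites, and count each mate singly, so counting error is larger than totals imply. The table has columns for 9 of 10 labelled libraries; a second library from 3802 is not analysed here.

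Libraries of a tumor were summed, filtered with filterByExpr, scaled by TMM and compared with edgeR 4.0.16 (glmQLFit, glmQLFTest, R 4.3.3), with Benjamini-Hochberg adjustment over 24743 genes and a threshold of 0.05. The SE is the absolute log2 fold change over the square root of F. The scripts were tested on simulated data. P-values measure the spread between separate tumors. Exact two-sided permutation tests over tumors used SciPy 1.17.1, with 10 assignments and a smallest p of 0.2. Levels are TMM-scaled CPM, or CPM per kb of exon from the table's own length column. Symbols came from GENCODE for 98.7% of features. Promoters came from RefSeq (GRCm38.p6), and coordinates of genes from the table (GRCm39).

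Alternatives were DESeq2 1.42.0, limma-voom (limma 3.58.1) with the tumor as a random effect, libraries as independent samples with and without a block for the duplicate number, other scaling and filters, the first library alone, and each tumor left out. The study used DESeq2, and its handling of duplicates is not given in the sources used here.

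The members and lists were chosen with earlier results of these data known. Named genes are the members, the 2 nearest patterns per member (root mean square distance of centred log2 CPM, prior count of 1, mean of at least 1 CPM), the 2 largest log2 fold changes and any gene past the threshold of each pathway list, and neighbors within 500 kb past the threshold. Other genes named (Plau, Plat, Pcsk5, Furin, Sparc, Ccl2, Hbegf, Egr2, Fos, Ccn1, Kit, Kitl, Csf1, Csf1r, Vegfa, Vegfb, Flt4, Gria2, Glrb, Chic2, Prkar1b, Get4 and marker genes), the ratios to Pdgfa and to marker lists, and the GC box and ETS core were chosen after values were seen. A count of 3 was the limit for a count of 0. One further allele of the KP genotype and the values of one listed gene are not reported here.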

Additional observations from a re-analysis of the deposited data

How the results depend on the processing

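Of the members, Pdgfa, Pdgfb, Pdgfc and Pdgfrb kept their direction in all 16 alternatives. These reuse the same tumors, and the groups of Pdgfa, Pdgfb and Pdgfc do not overlap, which leaves little room for reversal. Pdgfd ran from −1.62 (without 3802) to 1.69 (without 3800). Pdgfra turned to −0.02 with library totals, −0.02 under a minimum mean of 1 CPM and −0.16 under the upper quartile, and ran from −0.39 (without 170025) to 0.59 (without 3802). The cause was not tested.

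The number of genes called (45) was 1516 with DESeq2 on tumor sums, 543 with limma-voom, 880 without a filter and 80 under the minimum mean of 1 CPM. It ran from 0 (without 170019 or 170024, where 1939 and 1414 genes had an unadjusted p under 0.05 by edgeR) to 414 (without 3802), with 9 without 170025 and 8 without 3800. With the 9 libraries taken as independent samples it was 3344 in edgeR (17.1% of genes tested there) and 5042 in DESeq2, and with a replicate block for the duplicate number 2476. The duplicate number marks a split of 1 RNA and pairs no tumors.

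The number of members called (0) was 1 with DESeq2 on tumor sums and 1 with limma-voom (Pdgfc in both), 3 with libraries as independent samples in edgeR and 3 in DESeq2 (Pdgfa, Pdgfb, Pdgfc), and 2 with the replicate block (Pdgfb, Pdgfc). Treating duplicates as independent counts each tumor with 2 libraries as 2 replicates. The log2 difference in the Pdgfra to Pdgfrb ratio ran from −1.23 (without 3800) to −0.21 (without 3802), and that in the ratio of Pdgfa and Pdgfc to Pdgfb and Pdgfd from −1.47 (without 3800) to −0.25 (without 3802).

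With 2 KP tumors, 1 of them a single library, every group difference rests on few values.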

Other observations

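PDGF receptors belong with KIT, CSF1R and FLT3 to one class of receptor tyrosine kinases, and VEGF ligands are related to PDGF. Of 15 such genes 8 were higher and 7 lower in dFLEx tumors (median log2 fold change 0.78), and none passed the adjusted threshold. In all dFLEx tumors 4 were higher and 4 lower, beside 13.7% and 11.7% of all tested genes. Il34, a ligand of CSF1R, measured 8.04, 6.19 and 2.90 CPM in 170019, 170024 and 170025 against 67.1 and 63.4 CPM in 3800 and 3802 (log2 fold change −3.52, SE 0.65, adjusted p = 0.0936 by edgeR). Csf1, its other ligand, measured 12.8, 27.6 and 70.3 CPM against 311 and 43.0 CPM (−2.26, adjusted p = 0.466), and the receptor gene Csf1r 37.3 to 84.9 CPM against 156 and 109 CPM (−1.05, adjusted p = 0.65). Kit had a log2 fold change of 2.07 (adjusted p = 0.377). Its ligand gene Kitl measured 5.15, 5.91 and 18.0 CPM against 79.1 and 9.55 CPM (−2.19, adjusted p = 0.482), so the groups overlapped and the high value was in 3800. Among VEGF genes, Vegfc, a lymphatic growth factor, measured 2.69, 2.79 and 4.91 CPM against 35.7 and 19.4 CPM (−2.99, SE 0.64, adjusted p = 0.123), whereas Vegfa measured 129, 180 and 477 CPM against 92.8 and 21.0 CPM (2.20, adjusted p = 0.438) and Vegfb 46.6 to 57.5 CPM against 22.2 and 22.8 CPM (1.16, adjusted p = 0.549).

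Genes with the most similar profile over the 5 tumors were sought among 13963 genes, as a description. For Pdgfb the nearest was S1pr1, a sphingosine phosphate receptor gene of endothelial cells, at a root mean square distance of 0.103 on the log2 scale, followed by Tcf7l1 at 0.130. For Pdgfc they were P4ha2, a collagen prolyl hydroxylase gene (0.147), and the homeobox gene Alx4 (0.150). For Pdgfa they were Tmem202 (0.110) and Ikzf2 (0.134), for Pdgfd Zfp97 (0.108) and Eif2s1 (0.135), for Pdgfra Irak3 (0.0571) and Zfp398 (0.119), and for Pdgfrb Kmt2c (0.109) and Timeless (0.117). With 5 tumors many genes lie this near: 24 genes were within 0.2 of Pdgfb and 27 of Pdgfrb, against 5 to 7 of each other member.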
